A study of Sus scrofa with 6 samples.

Results

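Cell cycle and proliferation genes were examined in pig renal medulla 24 h after cardiopulmonary bypass (CPB). The 60 genes listed comprised 24 of G1 and S phase (cyclins D and E, their kinases, E2F factors and the replication machinery), 25 of G2 phase and mitosis, 7 inhibitors and pocket proteins, and 4 others (cyclins G1, G2 and H and the kinase CDK7). A gene counted as measured where a probe set, the group of short probes that reports 1 transcript on the array, was annotated with its symbol alone. This held for 37 of the 60 genes, on 50 probe sets, out of 6765 genes with such a probe set. The 23 others included MKI67, CDK1, CCND1, CCNE1, E2F1, RB1 and CDKN2A, and no value is given for them.

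The CPB group was 3 White-Landrace crossbred pigs (Large White-Landrace in the paper's methods) given 2.5 h of bypass under general anaesthesia. The Sham group was 3 such pigs given general anaesthesia for 2.5 h, with the neck dissection and heparin that the bypass animals also received. The animals were adult females. Each gave 1 piece of renal medulla and 1 Affymetrix porcine array. Values are intensities after robust multi-array averaging (RMA), differences are log2 CPB minus Sham with their standard error (SE), and tests are limma's moderated test over 23999 probe sets.

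A cell that divides passes through G1, copies its DNA in S phase, prepares in G2 and separates its chromosomes in mitosis. Cyclins switch on cyclin-dependent kinases (CDKs) at each step, while the inhibitors and the pocket proteins of the retinoblastoma family hold cells at rest. Most cells of the adult kidney are quiescent, and tubular cells can re-enter the cycle after injury. In RNA from a whole piece of tissue, fewer cells of a kind and less RNA per cell cannot be told apart.

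The pieces of tissue differed within each group. The centred mean of 25 of 35 listed proximal tubule markers, in log2 units from each marker's own average, was 1.34, -1.51 and 1.51 on CPB 1, 2 and 3 and -2.07, 1.05 and -0.32 on Sham 1, 2 and 3. LRP2, the endocytic receptor of the proximal tubule, whose straight part reaches into the outer medulla, was measured at 2469, 169 and 2740.2 on the CPB arrays and at 181, 2389.6 and 899 on the Sham arrays. AQP3, the basolateral water channel of collecting duct cells and also of urothelium, ran the other way, at 1079.8, 5437 and 1280.4 on the CPB arrays and 4831, 1048 and 2589.6 on the Sham arrays. The collecting duct list was mixed: on the probe sets used, GATA3 and, narrowly, AVPR2 divided the arrays as AQP3 did. SCNN1A and SCNN1B divided them in reverse, and HSD11B2 and TMEM213 did neither. Urothelium markers (8 of 20) lay at -0.86, 0.73 and -0.82 on the CPB arrays and 0.33, -0.87 and 1.48 on the Sham arrays. Collecting duct markers (7 of 15) lay between -0.41 and 0.57 in CPB and between -0.10 and 0.16 in Sham, and thick ascending limb markers (5 of 10) between -0.09 and 0.00 in CPB and between -0.34 and 0.39 in Sham. In proximal tubule and urothelium markers CPB 2, Sham 1 and Sham 3 thus stood apart from CPB 1, CPB 3 and Sham 2. Sham 3 stood apart the least in proximal tubule markers and the most in urothelium markers. Values are given array by array for that reason.

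Of the 37 genes, 3 had an unadjusted p under 0.05, and all were lower in CPB: CKS2, CKS1B and CCNG2. Over all 6765 genes, 117 had such a p in either direction (1.73%), and 46 of these were lower in CPB (0.68%) and 71 higher. CKS2 alone also reached the 1.6-fold difference of the study's threshold. Of the 6765 genes, 25 reached that threshold in either direction, and 12 of these were lower in CPB (0.177%). CKS2 was among the genes that the study itself picked from these arrays, so its call is not independent evidence. After Benjamini-Hochberg adjustment no cell cycle gene was called, nor was any of the 23999 probe sets (0%), and the limma adjusted p of the 37 genes was between 0.995 and 0.999. Of those probe sets, 336 had an unadjusted limma p under 0.05. The methods' t-test, run here on log2 values, gave 499 and also called 0 after adjustment. The 95% confidence interval of the difference lay wholly below 0 for CKS2, CKS1B and CCNG2 and included 0 for every other of the 37 genes. The CPB and Sham intensities did not overlap for 4 of the 37 genes, against 363 of the 6765 genes (5.37%): CKS2, STMN1 and CCNG2 were lower on all CPB arrays and CDC45 was higher. The exact two-sided permutation p of such a gene is 0.1, the smallest that 3 animals against 3 allow.

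The direction was mixed by role. The mean was lower in CPB for 25 of the 37 genes (67.6%), compared with 43.8% of all genes, and the median difference was -0.08 on the log2 scale, compared with 0.03 over all genes. G2/M genes had a median difference of -0.20, with 14 of 18 lower in CPB, and the median was -0.12 without CPB 1 and -0.31 without Sham 3. G1/S genes had a median of 0.07, with 5 of 11 lower, and the median was -0.0092 without CPB 2 and 0.13 without CPB 3. Inhibitor and pocket protein genes had a median of -0.12, with 3 of 4 lower, and leaving out Sham 1 brought it to -0.018 and leaving out Sham 2 to -0.23. The 4 other genes had a median of -0.14, with 3 lower. Without CKS1B and CKS2 the median of the remaining 16 G2/M genes was -0.17, and 12 were lower.

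**Figure D1:**
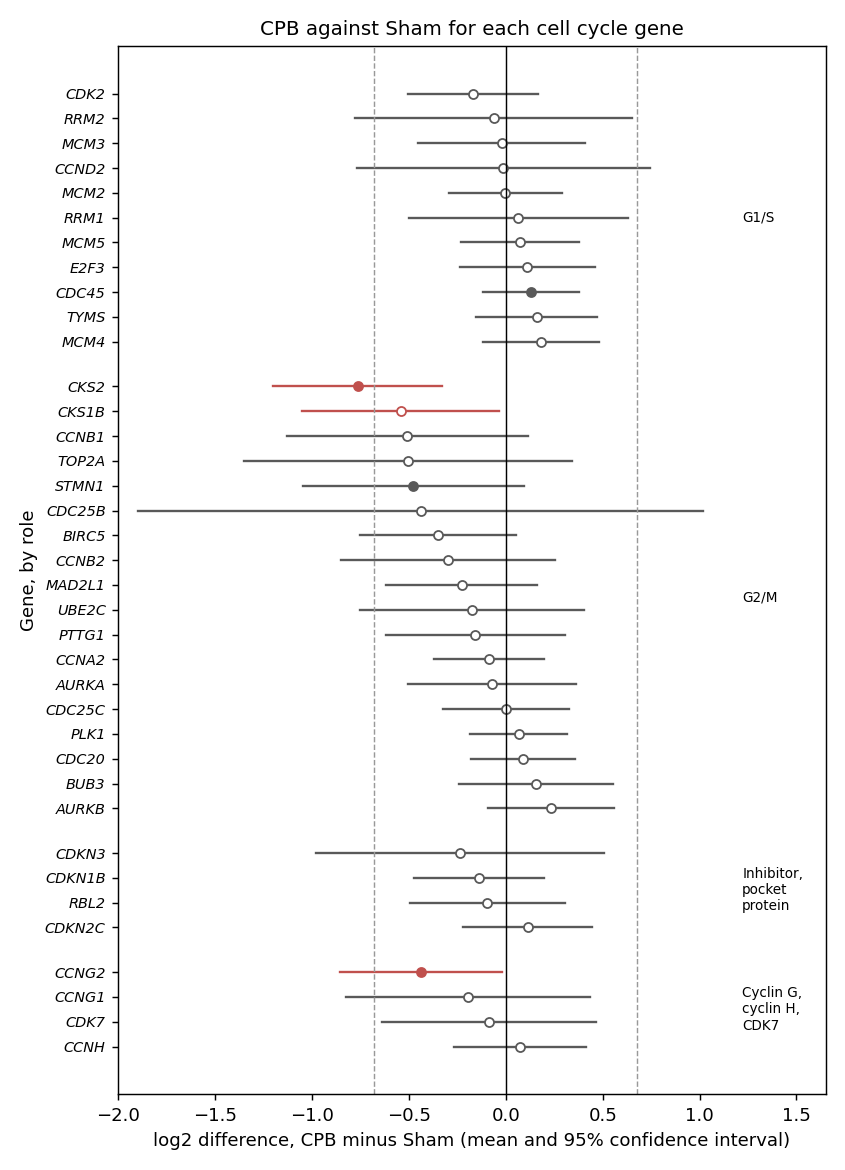
Log2 difference in intensity, CPB minus Sham, for the 37 cell cycle genes by role, as the limma mean with its 95% confidence interval (n = 3 animals each); filled points mark groups that did not overlap, red marks an unadjusted p under 0.05, and dashed lines mark 1.6-fold. Only CKS2, at -0.76, lies beyond a dashed line, and the G1/S genes all lie between -0.17 and 0.18.

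CKS2 and CKS1B encode the small subunits that bind CDKs and guide them to substrates that already carry phosphate, and CKS1B is also the cofactor with which the SCF ubiquitin ligase marks the inhibitor p27 for breakdown. CKS2 was measured at 107, 160.2 and 153 on the CPB arrays and at 232, 226 and 247 on the Sham arrays. Every CPB array thus lay below every Sham array, and the Sham arrays lay close together. The mean was 140.2 ± 28.6 in CPB and 235 ± 10.6 in Sham (SD, n = 3 each), a difference of -0.76 (SE 0.18, 95% confidence interval -1.20 to -0.33, limma adjusted p = 0.995). The lowest value was on CPB 1, and without that array the difference was -0.58, under 1.6-fold.

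CKS1B was measured at 237, 267 and 223 on the CPB arrays and at 380.2, 264 and 433 on the Sham arrays. Sham 2 fell among the CPB arrays, so the groups overlapped, while Sham 1 and Sham 3 were well above them. The difference was -0.54 (SE 0.21, 95% confidence interval -1.05 to -0.03, limma adjusted p = 0.995). It was -0.75 without Sham 2 and -0.39 without Sham 3. Leaving out any of CPB 1, CPB 3, Sham 1 or Sham 3 took its unadjusted p above 0.05.

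Among the cyclins and phosphatases that start mitosis, CCNB1, the cyclin B that carries CDK1 into mitosis, was measured at 32.0, 31.5 and 37.1 on the CPB arrays and at 69.7, 41.6 and 37.1 on the Sham arrays. Sham 1 stood alone, at 1.67 times the next highest array, and Sham 3 was level with CPB 3. The difference was -0.51 (SE 0.25), and it was -0.23 without Sham 1 and -0.69 without Sham 3. CCNB2, the related cyclin B2, had the same shape at 29.5, 30.4 and 25.6 on the CPB arrays and 48.0, 32.6 and 27.2 on the Sham arrays, with a difference of -0.30 (SE 0.23). Its 3 CPB values lay within the span of the Sham values apart from CPB 3, and Sham 1 was 1.47 times the next array. CCNA2, the cyclin A of S phase and G2, differed by -0.08, and CDC25C, a phosphatase that activates CDK1, by -0.0010.

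CDC25B, another phosphatase that activates CDK1, spread the most over the 6 arrays of the 37 genes. It was measured at 131, 513 and 141 on the CPB arrays and at 370.3, 179 and 358 on the Sham arrays. CPB 2, Sham 1 and Sham 3 were high and CPB 1, CPB 3 and Sham 2 low, the same division as in AQP3 and the reverse of the proximal tubule markers. The difference was -0.44 (SE 0.60). It was 0.0053 with the proximal tubule level as a covariate, -1.08 without CPB 2 and -1.42 without both CPB 2 and Sham 2.

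TOP2A, the topoisomerase that untangles replicated chromosomes, was measured at 42.8, 49.1 and 41.7 on the CPB arrays and at 107.6, 55.7 and 41.8 on the Sham arrays. Sham 1 was 1.93 times the next highest array, and Sham 3 was level with the lowest CPB arrays. The difference was -0.50 (SE 0.35), and it was -0.12 without Sham 1 and -0.80 without Sham 3. STMN1, the microtubule-destabilising protein stathmin, was measured at 314, 240.3 and 322 on the CPB arrays and at 548, 329 and 364 on the Sham arrays. No CPB array reached the lowest Sham array, but the gap between CPB 3 and Sham 2 was small. The difference was -0.48 (SE 0.23), and it was -0.26 without Sham 1.

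BIRC5 (survivin), a subunit of the chromosomal passenger complex, was measured at 37.3, 50.5 and 40.0 on the CPB arrays and at 60.5, 47.9 and 53.9 on the Sham arrays. CPB 2 lay among the Sham arrays and the other CPB arrays below them. The difference was -0.35 (SE 0.16). AURKB, the kinase of the same complex, was the G2/M gene with the largest difference in the other direction, 0.23 (SE 0.13), at 127, 157 and 142 on the CPB arrays and 120.1, 131 and 111 on the Sham arrays. Only CPB 1 lay below a Sham array.

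**Figure D2:**
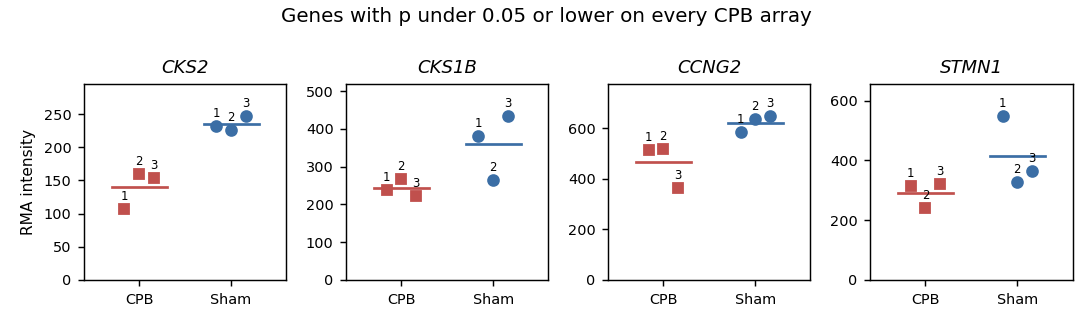
RMA intensity on each array for CKS2, CKS1B, CCNG2 and STMN1, with the animal number at each point (squares CPB, circles Sham) and a bar at the group's arithmetic mean. CPB lies wholly below Sham for CKS2, CCNG2 and STMN1, while for CKS1B Sham 2, at 264, lies among the CPB points.

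The remaining G2/M genes differed by less. Of the spindle checkpoint proteins, MAD2L1 differed by -0.23 (SE 0.16) and BUB3 by 0.16 (SE 0.16), or 0.056 without CPB 2. MAD2L1 was measured at 220.3, 175 and 226 on the CPB arrays and 241, 212 and 273 on the Sham arrays, and BUB3 at 750.2, 867 and 658 on the CPB arrays and 793, 631 and 617 on the Sham arrays. In both genes the groups overlapped. UBE2C, the ubiquitin-conjugating enzyme of the anaphase-promoting complex, differed by -0.17, PTTG1 (securin, which holds separase inactive until anaphase) by -0.16, and CDC20, the activator of that complex, by 0.09. The kinases AURKA, needed for spindle poles, and PLK1, which acts throughout mitosis, differed by -0.07 and 0.07. The groups overlapped in each of these 5 genes.

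The array labelled Sham 1 was the highest of the 6 for 6 of the 18 G2/M genes: CCNB1, CCNB2, TOP2A, STMN1, BIRC5 and UBE2C. This was 33.3% of the list, and 10 of all 37 cell cycle genes (27.0%) were highest there, compared with 15.5% of the 6765 genes. The centred mean of the 18 G2/M genes was -0.20, 0.01 and -0.14 on the CPB arrays and 0.28, 0.03 and 0.02 on the Sham arrays, with Sham 1 above the other arrays and CPB 1 and CPB 3 lowest. Sham 1 was also the array with the lowest proximal tubule level, -2.07, and the highest level of 15 of 23 listed endothelial markers, 0.56, of 16 of 21 fibroblast and pericyte markers, 0.40, and of the 5 thick ascending limb markers, 0.39. Single markers were split. Sham 1 was the highest array for 7 of those endothelial, 6 of those fibroblast and pericyte and 3 of those thick ascending limb markers. The endothelial level was -0.38, 0.44 and -0.54 on the CPB arrays and 0.56, -0.26 and 0.17 on the Sham arrays, and the fibroblast and pericyte level was 0.08, -0.06 and -0.42 on the CPB arrays and 0.40, -0.23 and 0.24 on the Sham arrays. Levels of 11 of 20 lymphocyte markers lay between -0.28 and 0.57 on the CPB arrays and between -0.13 and 0.17 on the Sham arrays, and those of 17 of 26 myeloid markers between -0.23 and -0.11 on the CPB arrays and between -0.13 and 0.33 on the Sham arrays, with Sham 1 and Sham 3 about level at the top. The part of these cells in the G2/M values was not tested. In the fit with a covariate made from the proximal tubule markers alone, the G2/M median was -0.15.

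**Figure D3:**
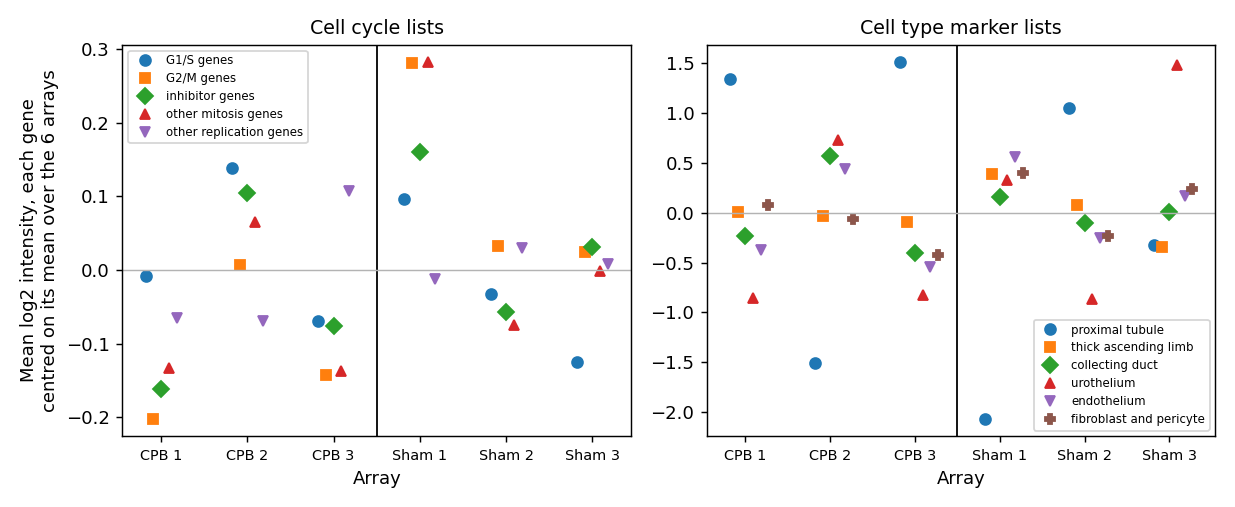
Mean log2 intensity of each gene list on each array, relative to each gene's average of all 6 arrays, for cell cycle lists (left) and cell type marker lists (right, on a wider scale). The G2/M and other mitosis genes are both at 0.28 on Sham 1, where the proximal tubule markers are at -2.07.

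**Figure D4:**
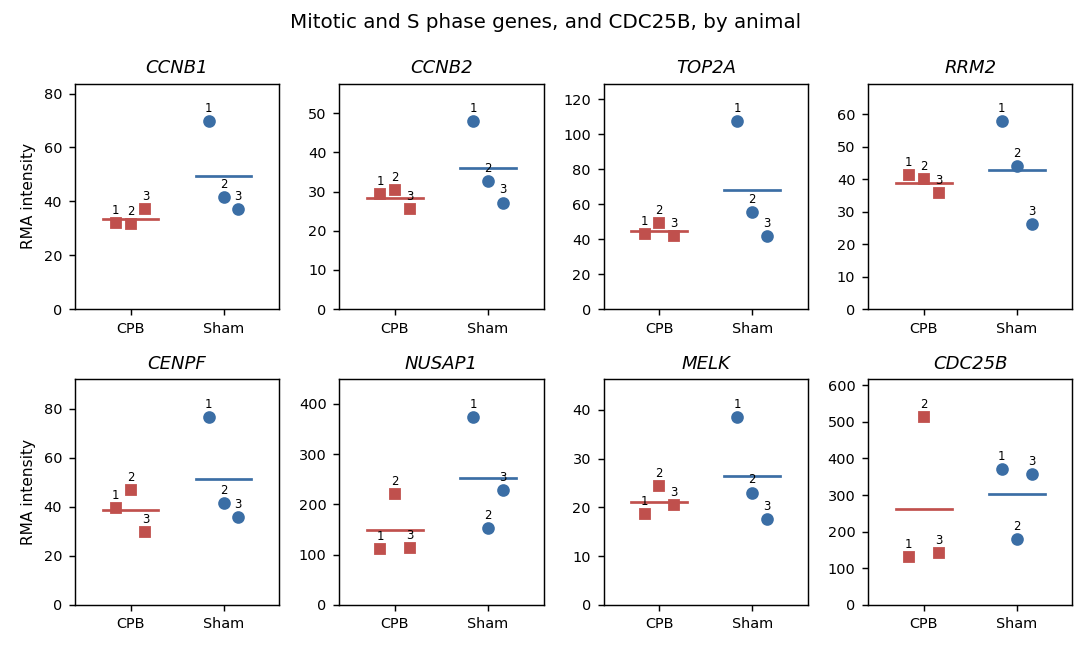
RMA intensity on each array for mitotic genes, RRM2 and CDC25B, with the animal number at each point (squares CPB, circles Sham) and a bar at the group's arithmetic mean. Sham 1 is the highest array in 7 of the 8 panels, and CDC25B, highest on CPB 2 at 513, is the other. All but CCNB1 and TOP2A were named after their values were seen, so this count is not a result about the lists. Sham 1 was highest for 6 of the 18 G2/M genes and for 15.5% of all genes.

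The 11 G1/S genes lay between -0.17 and 0.18 in their differences, and none had an unadjusted limma p under 0.05. Of the MCM helicase that opens DNA for replication, MCM4 was measured at 169, 177 and 188 on the CPB arrays and 145, 176 and 151 on the Sham arrays, a difference of 0.18 (SE 0.12). The groups overlapped only through Sham 2. MCM2 differed by -0.0020, MCM3 by -0.02 and MCM5 by 0.07. CDC45, which joins that helicase when an origin fires, was measured at 97.2, 106 and 99.4 on the CPB arrays and 89.0, 94.2 and 93.3 on the Sham arrays. All 3 CPB arrays were above all 3 Sham arrays, but by little, 0.13 (SE 0.10). With the methods' t-test its unadjusted p was under 0.05, though not after adjustment, and the second CDC45 probe set differed by -0.06.

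Of the enzymes that supply nucleotides, RRM1, the large subunit of ribonucleotide reductase, was measured at 441, 551 and 363 on the CPB arrays and 555, 363 and 383 on the Sham arrays, a difference of 0.07 (SE 0.23). It was high on CPB 2 and Sham 1. RRM2, the small subunit that is made in S phase, was measured at 41.1, 40.0 and 35.6 on the CPB arrays and 57.8, 44.0 and 26.2 on the Sham arrays, a difference of -0.06 (SE 0.29). The Sham arrays held both its highest and its lowest value. TYMS, which makes thymidylate, differed by 0.16 (SE 0.13).

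Of the regulators of the G1/S step, CDK2, the kinase that cyclins E and A activate, differed by -0.17 (SE 0.14), at 123, 150.2 and 134 on the CPB arrays and 152, 137 and 169 on the Sham arrays. CCND2, a cyclin D that answers to growth signals, was measured at 169, 243 and 127 on the CPB arrays and 229, 129 and 182 on the Sham arrays, with a difference of -0.01 (SE 0.31). Both groups spanned nearly the same range. E2F3, a transcription factor of S phase genes, differed by 0.11 (SE 0.14). For the 11 G1/S genes the 95% confidence interval of the difference reached at most -0.78 on the low side, for RRM2, and 0.74 on the high side, for CCND2.

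**Figure D5:**
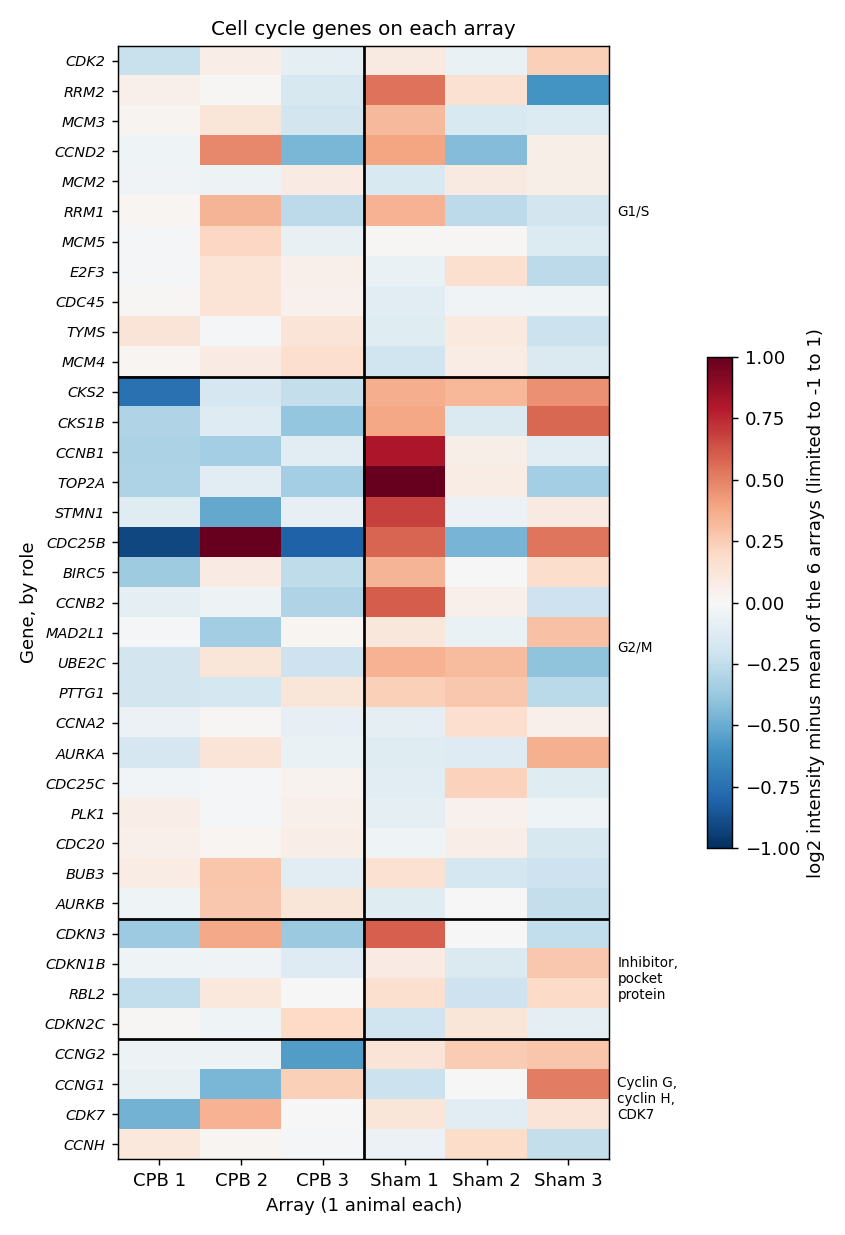
Log2 intensity of the 37 cell cycle genes on each array, each gene minus its mean over the 6 arrays, with genes as rows by role and CPB arrays left of Sham arrays. CKS2 is below its mean on all CPB arrays, CCNB1, CCNB2 and TOP2A are highest on Sham 1, and CDC25B runs from its lowest value on CPB 1 to its highest on CPB 2.

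Of the inhibitors, CDKN1B (p27), which blocks cyclin E with CDK2, was measured at 497, 503 and 470.1 on the CPB arrays and 543, 465 and 618 on the Sham arrays. The CPB arrays lay within the Sham range, and the difference was -0.14 (SE 0.14). Its other probe sets differed by -0.20 and 0.20, on opposite sides of 0. CDKN2C (p18), which binds CDK4 and CDK6, was measured at 129, 125 and 147 on the CPB arrays and 112, 140 and 121 on the Sham arrays, a difference of 0.11 (SE 0.14). CDKN3, a phosphatase that inactivates CDK2 and is itself made by dividing cells, was measured at 36.0, 60.4 and 35.8 on the CPB arrays and 70.3, 46.3 and 39.1 on the Sham arrays. Like TOP2A it was highest on Sham 1, and its difference was -0.24 (SE 0.30). RBL2 (p130), the pocket protein that holds E2F targets silent in resting cells, was measured at 616, 785 and 727 on the CPB arrays and 814, 631 and 834 on the Sham arrays, a difference of -0.10 (SE 0.16).

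Cyclin G2 differs from the other cyclins in being linked to leaving the cycle rather than to advancing it, and its gene is a target of FOXO factors. CCNG2 was measured at 514, 515 and 362 on the CPB arrays and at 585, 634 and 646 on the Sham arrays. All CPB arrays were below all Sham arrays, with CPB 3 lowest. The mean was 464 ± 88.0 in CPB and 622 ± 32.6 in Sham (SD, n = 3 each), a difference of -0.44 (SE 0.17, 95% confidence interval -0.86 to -0.02, limma adjusted p = 0.995). It was -0.27 without CPB 3, and only leaving out CPB 1 or CPB 2 kept the unadjusted p under 0.05.

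CCNG1, the related cyclin whose gene is a target of p53, was measured at 1642, 1260.0 and 2039 on the CPB arrays and 1486, 1729.8 and 2461 on the Sham arrays. The groups overlapped over most of their range, and the difference was -0.19 (SE 0.26). CDK7 and CCNH encode the CDK-activating kinase and its cyclin, which are also part of the transcription factor TFIIH. CDK7 was measured at 79.7, 141 and 110.2 on the CPB arrays and 120.2, 102 and 121 on the Sham arrays, a difference of -0.09 (SE 0.23). CPB 1 was lowest and CPB 2 highest of all arrays. CCNH differed by 0.07 (SE 0.14).

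Several probe sets measured 9 of the 37 genes, and the brightest of each is the one given above. Their differences lay on both sides of 0 for 7 of these genes (CDC45, CDK2, CDKN1B, MCM2, MCM4, TYMS and UBE2C). They were on 1 side for AURKA, both lower in CPB, and MCM5, all 3 higher. None of the 50 probe sets other than those of CKS2, CKS1B and CCNG2 had an unadjusted limma p under 0.05. CCNA2, CCNB2 and AURKA were dim, with a mean under an intensity of 37.8, the limit for the lowest 0.25 of all probe sets, and MCM3, RRM2 and CCNB1 lay just above it.

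Of 168 further genes listed for replication, mitosis and cycle control, 76 were measured, and 2 had an unadjusted limma p under 0.05, both lower in CPB, against 117 of all 6765 genes (1.73%) in either direction and 46 (0.68%) lower. NUF2, part of the kinetochore complex that holds microtubules, was measured at 24.2, 28.7 and 33.3 on the CPB arrays and 45.8, 32.8 and 46.7 on the Sham arrays, a difference of -0.53 (SE 0.20). Its probe set was dim, with a mean under the limit of 37.8. WEE1, the kinase that keeps CDK1 inactive until mitosis, was measured at 42.3, 56.1 and 41.3 on the CPB arrays and 78.5, 53.0 and 77.9 on the Sham arrays, a difference of -0.57 (SE 0.21). Both genes overlapped between the groups through Sham 2, and leaving out CPB 1, Sham 1 or Sham 3 took both p-values above 0.05. These counts use the brightest probe set of each gene. A second, dim CHEK1 probe set also had an unadjusted limma p under 0.05. It differed by -0.39 without overlap, while the CHEK1 probe set used, dim as well, differed by -0.0038. None of the 76 genes reached the study's threshold, against 25 of the 6765 genes in either direction.

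The 21 measured genes of the mitosis list had a median difference of -0.06, with 15 lower in CPB and 6 higher, by up to 0.44. Of the 21, 9 (42.9%) were highest on Sham 1, compared with 15.5% of the 6765 genes. The genes given next were named after their values were seen, and all are among those lower in CPB. NUSAP1, a spindle protein, was measured at 111, 221 and 114 on the CPB arrays and 374, 153 and 229 on the Sham arrays, a difference of -0.74 (SE 0.41), but its second probe set differed by -0.05 and was highest on CPB 2. CENPF, a kinetochore protein, was measured at 39.4, 46.9 and 29.9 on the CPB arrays and 76.6, 41.5 and 36.0 on the Sham arrays, and MELK, a kinase of dividing cells, at 18.6, 24.4 and 20.5 on the CPB arrays and 38.5, 23.0 and 17.7 on the Sham arrays. On the probe sets given for these 3 genes Sham 1 was highest and the other Sham arrays lay among or near the CPB arrays. The MELK probe set was dim by the same limit as NUF2. CENPH, another kinetochore protein, and RACGAP1, needed for cytokinesis, differed by -0.59 (SE 0.33) and -0.52 (SE 0.36).

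The 27 measured replication genes had a median difference of -0.03, with 15 lower in CPB, and the 28 control genes a median of 0.05, with 10 lower. PCNA, the sliding clamp of DNA polymerases, was measured at 219, 209 and 254 on the CPB arrays and 309.6, 209 and 334 on the Sham arrays, a difference of -0.30 (SE 0.21). CDKN1A (p21), the CDK inhibitor induced by p53, was measured at 174, 482 and 155 on the CPB arrays and 256, 161 and 231 on the Sham arrays. CPB 2 was far above the other arrays, the difference was 0.15 (SE 0.46), and without CPB 2 it was -0.36.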

How the data were processed

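The authors normalised the scanned arrays with RMA (background correction, quantile normalisation and median polish, in ArrayStar) and deposited 1 intensity per probe set and array. The scale was read from the values, which are those of linear intensities, and log2 was taken first. The median intensity of the 6 arrays was between 94.6 and 96.9. Signal over background is not known from these values, and the number of arrays limits the precision: with 3 animals against 3, an exact two-sided permutation test cannot go below p = 0.1.

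Of 24123 probe sets, 124 controls were left out and 23999 were fitted with limma 3.58.1 (lmFit, eBayes) in R 4.3.3, on CPB against Sham alone, and p-values were adjusted over all of them (Benjamini-Hochberg). The study's threshold was 1.6-fold or more with an unadjusted p under 0.05. The platform annotation gave 1 symbol for 10099 probe sets and several for 198. Probe sets with several symbols named no gene, and CDK6, whose probe sets repeat its symbol, was left out. Where a gene had several probe sets, the one with the highest mean log2 intensity was used.

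The cell cycle genes, the marker and pathway lists and the tests were chosen with earlier results of these data known. By rule, the text names the genes with an unadjusted p under 0.05 or no overlap, the 3 brightest and the 3 with the largest differences of each role, genes whose probe sets clearly differ in sign, pathway genes with an unadjusted p under 0.05, and CKS1B, CKS2, TOP2A, MKI67 and CDK1 in any case. This gave 21 genes, and 25 others, besides LRP2, CHEK1 and the collecting duct markers, were named after their values were seen. The fitting script was tested on simulated data. Alternatives were the t-test of the methods (here with equal variances, on log2 values), an intensity trend with a robust prior, array weights and 2 scalings. Others were no dim probe sets, a replicate block, a proximal tubule covariate, the mean of a gene's probe sets, other fold minimums, and leaving arrays out. Positions and sequences were not used here.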

Additional observations from a re-analysis of the deposited data

How the results depend on the processing

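The count of cell cycle genes past the study's threshold was 1 (CKS2). It was 3 with array weights and 3 without Sham 2 and CPB 2 together (CDC25B, CKS1B and CKS2 in both), and 0 at a 2-fold minimum. With each array left out in turn it ranged between 0 (without CPB 1) and 3 (without Sham 3, when CCNB1, CKS2 and TOP2A were called). It was 2 without CPB 2 (CDC25B, CKS2) and 2 without Sham 2 (CKS1B, CKS2). Counts over all probe sets moved as well, as given next, so these counts are not a result about cell cycle genes alone. The count of all probe sets was 73. It was 30 with the methods' t-test, 2116 with array weights, 3070 without Sham 2 and CPB 2 together, 21 at a 2-fold minimum, and 52 (without CPB 3) to 701 (without Sham 2) with each array left out, 693 without CPB 2. The array weights did not converge and gave CPB 1 a weight of 6.16. The inhibitor median was -0.12, against -0.26 with array weights and -0.28 without Sham 2 and CPB 2 together, -0.021 with the proximal tubule covariate, and -0.23 (without Sham 2) to -0.018 (without Sham 1) with each array left out. The cause of these differences was not tested. CKS1B and CCNG2 had an unadjusted p above 0.05 with the t-test as run here, the intensity trend, the replicate block and the proximal tubule covariate.

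Over all probe sets, deviations from the group mean correlated at -0.39, -0.68 and -0.02 between arrays of replicate number 1, 2 and 3. Such correlations cannot show how the animals were numbered, and no pairing was used in the main fit. With the replicate block the counts were 1 cell cycle gene and 76 probe sets, and CKS2 was still the gene called.

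Of 46 named genes, 30 kept their direction in all 12 alternatives and 16 did not in at least 1. With the proximal tubule covariate CCND2 was 0.22, CDC25B 0.0053, CDK7 0.036, MCM3 0.077 and RRM2 0.010. Without Sham 2 and CPB 2 together CDC25C was 0.12, CDKN1A -0.56, MCM2 0.068 and RRM1 -0.20. MCM2 was 0.049 as the mean of its probe sets. With each array left out the differences ranged between -0.16 and 0.090 for AURKA, -0.26 and 0.21 for CCND2, -0.36 and 0.011 for CCNG1, -0.026 and 0.18 for CCNH, -0.061 and 0.11 for CDC25C, -0.28 and 0.13 for CDK7, -0.36 and 0.45 for CDKN1A, -0.49 and 0.0050 for CDKN3, -0.079 and 0.044 for MCM2, -0.11 and 0.14 for MCM3, -0.0092 and 0.13 for MCM5, -0.50 and 0.060 for MELK, -0.22 and 0.0033 for RBL2, -0.088 and 0.26 for RRM1, and -0.38 and 0.19 for RRM2. The medians of the left-out fits were -0.31 to -0.12 for G2/M genes and -0.0092 to 0.13 for G1/S genes. Chosen after seeing the data, the G2/M level on Sham 1 was 0.28, 0.28 and 0.31 with a second quantile normalisation, median centring and no dim probe sets. Those scalings moved the median of all probe sets by -0.0042 and 0.011.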
